A study of Mus musculus with 12 samples.

Results

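The genes described here are 8 chemokine ligands that activated T cells can transcribe, namely Ccl3, Ccl4, Ccl5, Ccl1, Ccl22, Xcl1, Cx3cl1 and Cxcl10. Members were chosen by name, and their probes were found through the array platform's gene annotation. Of the 8 genes, 7 had an annotated probe among the 31641 probes of the value table, 9 probes in all, against 17759 genes with a probe in the whole table. Ccl22 had no annotated probe and was not analysed here. Ccl4 and Cxcl10 had 2 probes each, and a gene is described by its main probe, the one with the highest mean over all 12 arrays.

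The samples were mouse CD4+ T cells on 12 Illumina arrays, 1 array per sample, in 4 groups of 3. Blimp1-deficient (CKO) and Blimp1-sufficient (Ctrl) naive CD4+CD44low T cells, both carrying a Foxp3-GFP reporter and an allotype mark, had been injected together in equal numbers into RAG1-/- hosts, a strain without its own lymphocytes of the T and B lineages. After 6 to 8 weeks the donor cells were sorted by allotype into CD4+Foxp3+ regulatory cells (Treg; pTreg in the labels) and CD4+Foxp3- effector cells (Teff). The groups were therefore CKO Treg, Ctrl Treg, CKO Teff and Ctrl Teff. All came from C57BL/6 mice of 8 to 12 weeks, all had shared the lymphopenic host with cells of the other genotype, and all were exposed to PMA and ionomycin for 4 h in culture before RNA was taken. Spleen, large intestine lamina propria and mesenteric lymph node cells were pooled, so every value averages over these sites. The sources do not name the driver of the deletion. Nor do the labels say whether the 3 samples of a group came from separate mice, so a p-value here reflects only spread among these samples, which may be technical.

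Chemokines are small secreted proteins that direct the movement of cells bearing matching G protein-coupled receptors. T cells transcribe several of them within hours of antigen receptor signalling, and PMA with ionomycin mimics that signal by activating protein kinase C and raising calcium, which brings AP-1, NF-kB and NFAT to their target genes. Blimp1, the product of Prdm1, is a zinc finger repressor that in T cells is known for its part in effector differentiation and in Il10 expression. Ccl3, Ccl4 and Ccl5 are inflammatory CC chemokines that attract monocytes, dendritic cells and activated T cells. Ccl1 binds Ccr8, Ccl22 binds Ccr4, Xcl1 binds Xcr1 on cross-presenting dendritic cells, Cx3cl1 is the membrane-tethered ligand of Cx3cr1, and Cxcl10 is an interferon-induced ligand of Cxcr3.

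In the mouse genome (RefSeq, GRCm38.p6) Ccl1, Ccl5, Ccl3 and Ccl4 lie on chromosome 11. Ccl3 and Ccl4 are neighbours there, with 0 protein-coding genes between them and overlapping annotated spans, and 2 genes, Ccl9 and Ccl6, lie between Ccl5 and Ccl3. Ccl22 and Cx3cl1 are neighbours on chromosome 8, Xcl1 is on chromosome 1 and Cxcl10 on chromosome 5.

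The 250 bases before the annotated start were available for 6 of the 8 genes, and 4 are shown, picked after their values were seen, because their genes behaved differently below: Ccl3 and Ccl1 had their highest means in Ctrl Teff, Xcl1 was higher in CKO arrays, and Cxcl10 varied widely between arrays of a group. Each is written 5′ to 3′ on the gene's own strand, and capitals mark matches, on either strand, to the searched letters of NF-kB, AP-1, NFAT or the interferon-stimulated response element (ISRE).
Ccl3, chr11:83649379-83649628, minus strand: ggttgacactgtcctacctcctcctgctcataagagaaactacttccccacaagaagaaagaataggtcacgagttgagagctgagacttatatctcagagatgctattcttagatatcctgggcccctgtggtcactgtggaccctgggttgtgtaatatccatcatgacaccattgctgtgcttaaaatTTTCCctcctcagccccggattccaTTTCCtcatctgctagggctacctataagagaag
Ccl1, chr11:82179813-82180062, minus strand: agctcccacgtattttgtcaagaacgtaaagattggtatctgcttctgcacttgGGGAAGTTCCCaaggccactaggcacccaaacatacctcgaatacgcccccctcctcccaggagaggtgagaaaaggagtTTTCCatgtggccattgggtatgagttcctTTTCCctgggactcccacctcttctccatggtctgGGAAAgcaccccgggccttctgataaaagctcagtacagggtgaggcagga
Xcl1, chr1:164935523-164935772, minus strand: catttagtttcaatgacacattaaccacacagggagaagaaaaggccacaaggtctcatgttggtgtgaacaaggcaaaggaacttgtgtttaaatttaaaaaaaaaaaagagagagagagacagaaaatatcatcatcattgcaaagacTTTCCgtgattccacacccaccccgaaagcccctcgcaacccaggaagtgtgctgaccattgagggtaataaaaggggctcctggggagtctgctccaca
Cxcl10, chr5:92348890-92349139, minus strand: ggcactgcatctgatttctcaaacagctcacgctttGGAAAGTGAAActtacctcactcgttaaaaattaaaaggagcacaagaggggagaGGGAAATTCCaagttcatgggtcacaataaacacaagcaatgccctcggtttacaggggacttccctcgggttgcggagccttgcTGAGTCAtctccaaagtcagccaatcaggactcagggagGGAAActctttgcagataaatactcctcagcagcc

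The letters searched on both strands were GGGA, any 2 bases and TTCC for NF-kB, found in 1.21% of all 32536 promoter windows of the same length, TGANTCA for AP-1 in 6.73%, GGAAA for the NFAT core in 55.72%, GAAA, any 2 bases and GAAA for the ISRE in 2.98%, and GTGAAAG for the Blimp1 core in 3.57%. The NFAT letters can fall inside an NF-kB or ISRE match. Cxcl10 held an NF-kB match at bases 159 to 150 before the start, an AP-1 match at bases 74 to 68, an ISRE match at bases 213 to 204 and 3 NFAT matches, 2 of them overlapping the others. Ccl1 held NF-kB matches on both strands over bases 196 to 186 and 3 NFAT matches. Ccl3 held 2 NFAT matches and Xcl1 held 1. None of these letters was found in the windows of Cx3cl1 and Ccl22, and the Blimp1 letters were found in none of the 6. A match describes letters only, and no binding was measured here.

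The labels were checked once. Foxp3, the lineage factor of regulatory T cells, averaged 8.05 ± 0.67 in CKO Treg and 8.02 ± 0.84 in Ctrl Treg, against 4.64 ± 0.19 in CKO Teff and 4.58 ± 0.16 in Ctrl Teff (log2 intensity, SD, n = 3 each). Prdm1 itself read 3.27 higher in Treg and 3.34 higher in Teff on arrays with the CKO label (log2), and whether its probe lies in the deleted part was not stated, so this probe does not check the labels. Il10 averaged 6.98 ± 0.16 in CKO Treg and 12.22 ± 0.52 in Ctrl Treg (SD, n = 3 each), a difference of −5.24 (adjusted p 0.00241 in limma). It averaged 9.49 ± 1.02 in CKO Teff and 11.95 ± 0.72 in Ctrl Teff, a difference of −2.46 (adjusted p 0.676 in limma, with pairs 0.00307), and was lower in 3 of 3 pairs in each cell type. Every direction below is that of the arrays labelled CKO relative to those labelled Ctrl. Array medians were 4.66 to 4.68. The mean of 5 of 7 listed T cell genes was 10.11 to 10.41 in CKO Treg, below the 10.51 to 10.93 in Ctrl Treg. In Teff this mean was 9.99 to 10.43 on CKO arrays, below the 10.58 to 10.67 on Ctrl arrays. Its part in the chemokine differences was not tested. Markers of other cells were present: the mean of 9 of 10 listed neutrophil genes was 6.40 to 9.12 in CKO Treg, 6.66 to 10.15 in Ctrl Treg, 7.67 to 10.45 in CKO Teff and 6.72 to 11.09 in Ctrl Teff. Of these 9 genes, Cxcr2 stayed at 4.52 to 5.05 on all 12 arrays. The mean of the 7 basophil and mast cell genes was 10.35 on CKO Teff array 1 and 9.44 on CKO Teff array 2, against 5.52 on CKO Teff array 3 and 4.83 to 6.56 on the 9 arrays of the other groups. These 2 arrays stand apart, and results that rest on them are given with and without them. The list of 9 CD8 and NK cell genes was mixed. Cd8a, Ncr1 and Klrb1c lay near or below the array median on all 12 arrays (4.13 to 4.80), while Cd8b1 (8.45 to 10.02), Nkg7 (10.82 to 13.55) and Fcer1g (6.40 to 12.28) lay above it on all 12. Klra7 and Klre1 reached 10.84 and 10.33 in CKO Teff, and Klrk1 read 4.45 to 6.99.

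Values are log2 intensities as deposited, where 1 unit is a doubling, and probe brightness is compared only within a probe. The highest value of an array was 14.78 to 14.98. Ccl3 came within 0.5 of its array's highest value on 5 of 12 arrays, Ccl4 on 7 and Xcl1 on 1, so differences between bright arrays may be compressed for these genes. In sorted bulk RNA fewer producing cells and less RNA per cell cannot be told apart.

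**Figure D1:**
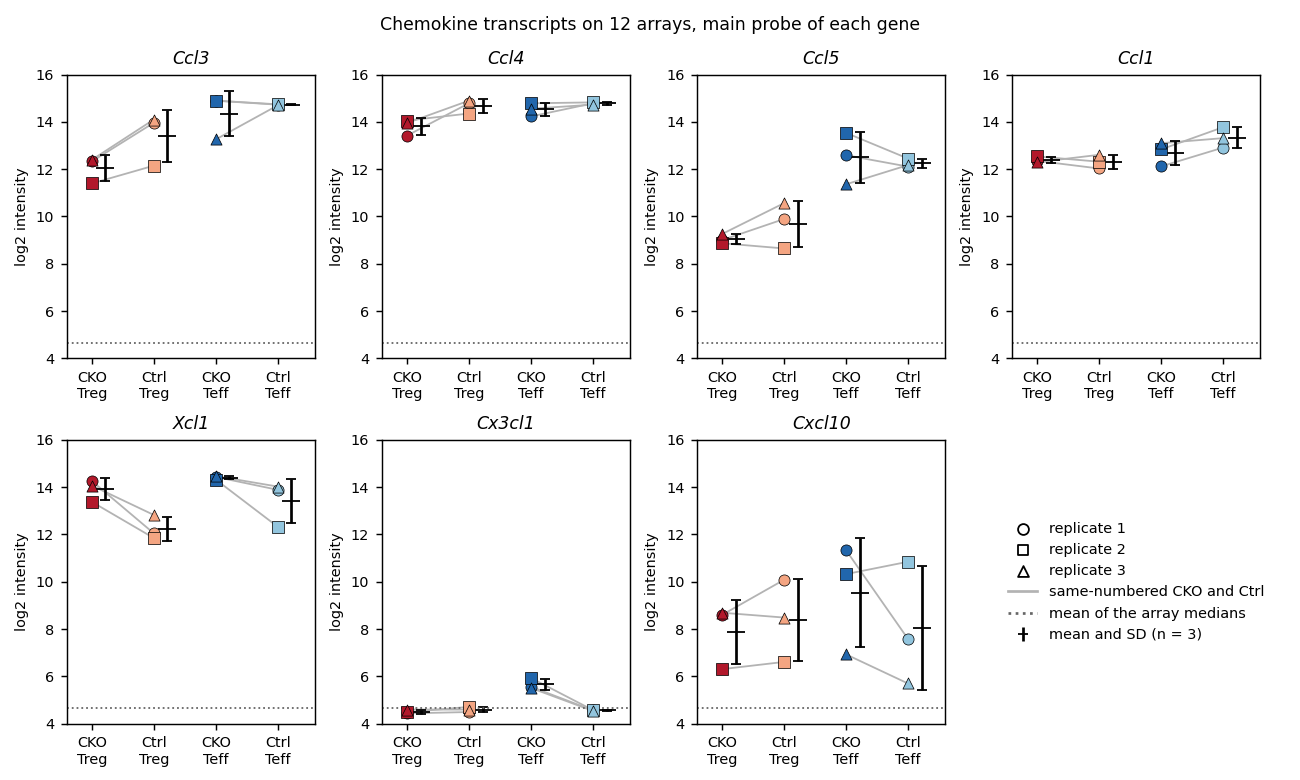
Log2 intensity (vertical axis) of the main probe of each of 7 chemokine genes on the 12 arrays, by group. Each point is 1 array, grey lines join same-numbered CKO and Ctrl arrays of a cell type, black crosses are the mean and SD of 3 arrays, and the dotted line is the mean of the array medians. Ccl5 separates Treg from Teff arrays in both genotypes, Xcl1 is higher in CKO than in Ctrl arrays of each number, and Cx3cl1 lies at 5.51 to 5.93 in CKO Teff and at 4.43 to 4.71 in the other groups.

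Among the inflammatory CC chemokines, Ccl3 was 12.33, 11.40 and 12.39 on the 3 CKO Treg arrays, against 13.96, 12.15 and 14.10 on the Ctrl Treg arrays. In effector cells it was 14.89, 14.89 and 13.26 on the CKO arrays, against 14.73, 14.74 and 14.70 on the Ctrl arrays. The 4 group means ran 12.04 ± 0.56 in CKO Treg, 13.40 ± 1.09 in Ctrl Treg, 14.35 ± 0.95 in CKO Teff and 14.72 ± 0.02 in Ctrl Teff (SD, n = 3 each), and neighbours in this order overlapped in each case. The CKO Treg arrays lay below all 6 Teff arrays, and so did the Ctrl Treg arrays except relative to CKO Teff array 3.

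Ccl4 on its main probe was 13.42, 14.05 and 13.95 in CKO Treg, against 14.78, 14.35 and 14.89 in Ctrl Treg. The CKO Teff arrays read 14.23, 14.78 and 14.55, against 14.78, 14.82 and 14.73 in Ctrl Teff. CKO Treg was the lowest group, at 13.81 ± 0.34, and overlapped no other, while the other 3 groups overlapped each other. The second Ccl4 probe gave a wider range, with 12.26, 11.64 and 11.65 in CKO Treg against 13.93, 12.95 and 13.65 in Ctrl Treg, and 14.74, 14.67 and 13.15 in CKO Teff against 14.67, 14.57 and 14.47 in Ctrl Teff.

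Both Ccl4 probes put CKO Treg lowest, but they differed elsewhere. After each probe was centred on its own mean over the 12 arrays, the root-mean-square (RMS) difference between the second Ccl4 probe and the Ccl3 probe was 0.36, against 0.87 between both Ccl4 probes. On CKO Teff array 3 the second Ccl4 probe and Ccl3 dipped together, while the main Ccl4 probe did not. Probe sequences were not used here, and the genes are adjacent and similar, so a shared signal between them was not tested.

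**Figure D2:**
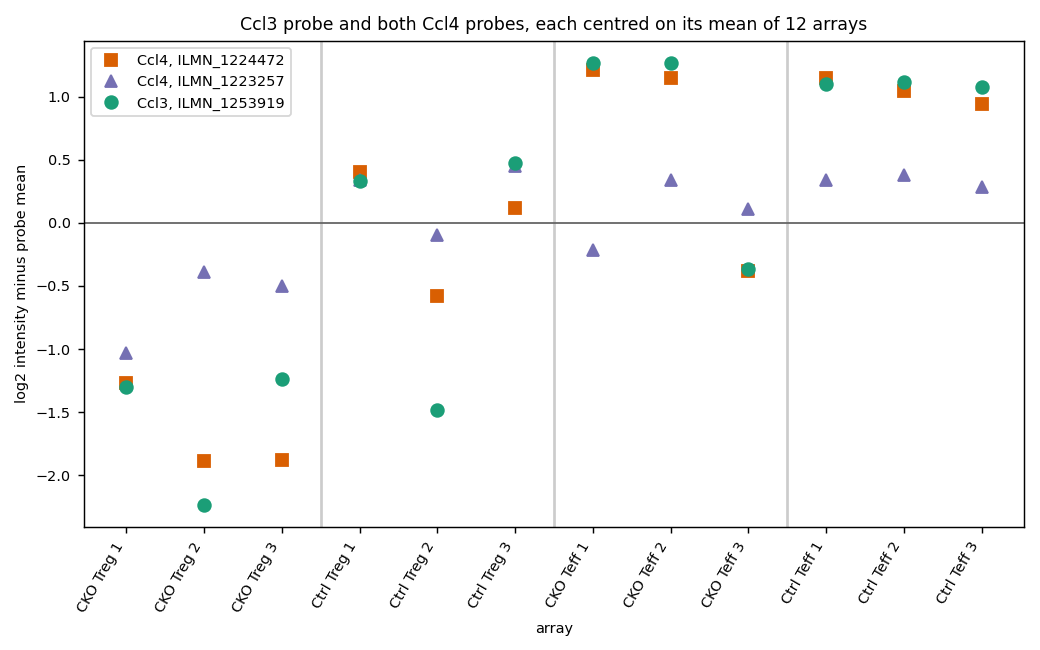
Log2 intensity minus the probe's mean over 12 arrays (vertical axis) for the Ccl3 probe and both Ccl4 probes on each array (horizontal axis). Squares (second Ccl4 probe) follow circles (Ccl3), with an RMS difference of 0.36, more closely than triangles (main Ccl4 probe), with 0.87.

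Ccl5 was 9.0, 8.87 and 9.26 in CKO Treg, against 9.89, 8.65 and 10.56 in Ctrl Treg. In effector cells it was 12.59, 13.54 and 11.36 on the CKO arrays, against 12.11, 12.45 and 12.17 on the Ctrl arrays. All 6 Treg arrays lay below all 6 Teff arrays, while within each cell type the genotypes overlapped. CKO Teff arrays varied most, with an SD of 1.09 against 0.18 in Ctrl Teff.

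Ccl1, the ligand of Ccr8, was bright in every group. It read 12.35, 12.54 and 12.29 in CKO Treg, against 12.03, 12.32 and 12.61 in Ctrl Treg, and 12.11, 12.83 and 13.10 in CKO Teff, against 12.91, 13.77 and 13.31 in Ctrl Teff. Ctrl Teff had the highest mean, 13.33 ± 0.43, and overlapped CKO Teff but neither Treg group. The remaining 3 groups overlapped each other.

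Xcl1, lymphotactin, was 14.26, 13.38 and 14.07 in CKO Treg, against 12.05, 11.85 and 12.82 in Ctrl Treg. It was 14.43, 14.32 and 14.47 in CKO Teff, against 13.89, 12.32 and 14.02 in Ctrl Teff. No CKO array of either cell type overlapped the Ctrl arrays of that type. By mean the order was CKO Teff (14.41 ± 0.08), CKO Treg (13.90 ± 0.46), Ctrl Teff (13.41 ± 0.95) and Ctrl Treg (12.24 ± 0.52), in which CKO Teff lay just above CKO Treg and the later neighbours overlapped.

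Cx3cl1, fractalkine, is better known from endothelium and neurons than from T cells. It was 4.43, 4.49 and 4.60 in CKO Treg, against 4.49, 4.71 and 4.60 in Ctrl Treg. The CKO Teff arrays read 5.56, 5.93 and 5.51, against 4.56, 4.57 and 4.54 in Ctrl Teff. It was above its array's median on 4 of 12 arrays, 3 of them CKO Teff, and so passed the filter on dim probes through the group in which it is high. The other groups did not separate from the array median or from each other. The mean of 8 endothelial, epithelial and stromal genes was 4.80 to 5.17 in CKO Teff and 4.80 to 4.89 in Ctrl Teff. Among them the endothelial gene Cdh5 read 4.66 to 4.89 in CKO Teff and 4.59 to 4.89 in Ctrl Teff, while Pecam1, which is also found on leukocytes, read 5.84 to 8.41 in CKO Teff and 5.21 to 6.33 in Ctrl Teff.

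Cxcl10 varied most within groups. It was 8.59, 6.31 and 8.69 in CKO Treg, against 10.08, 6.61 and 8.49 in Ctrl Treg, and 11.34, 10.32 and 6.93 in CKO Teff, against 7.58, 10.85 and 5.70 in Ctrl Teff. Group SDs were 1.35 to 2.60, and all 4 groups overlapped. The second Cxcl10 probe was dimmer, between 4.61 and 7.57, and its 4 brightest arrays were the same 4 as on the main probe.

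Cxcl10 moved with the neutrophil markers rather than with a group. At its high end it also ran with other myeloid markers and with basophil and mast cell markers. The 4 arrays with the highest mean of the 9 neutrophil genes (10.01 to 11.09) were the 4 with the highest Cxcl10 (10.08 to 11.34), and they came from CKO Teff (arrays 1 and 2), Ctrl Treg (array 1) and Ctrl Teff (array 2). The 4 lowest on one measure (neutrophil mean 6.40 to 7.67) were also the 4 lowest on the other (Cxcl10 5.70 to 6.93). A list of myeloid and dendritic genes, 10 of 12 with a probe, had its highest means on the same 4 arrays. These means were 7.08 and 7.59 on CKO Teff arrays 1 and 2, 6.92 on Ctrl Treg array 1 and 7.20 on Ctrl Teff array 2. Its lowest arrays were not the same 4, with 5.95 on Ctrl Teff array 1 and 6.58 on CKO Treg array 2. Of this list Itgam, Itgax, Csf1r, Adgre1 and Flt3 stayed between 4.27 and 5.24 on all 12 arrays. H2-Aa, H2-Ab1, Cd74, Lyz2 and Cd14 ranged more widely, from 4.70 to 12.04. The mean of the 7 basophil and mast cell genes was also highest on the 4 arrays with the highest Cxcl10. It was 10.35 and 9.44 on CKO Teff arrays 1 and 2 and 6.56 on Ctrl Teff array 2. On Ctrl Treg array 1 it was 5.99, level with 5.99 on Ctrl Treg array 3. The part of neutrophil, other myeloid, basophil or mast cell RNA in the Cxcl10 values was not tested.

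**Figure D3:**
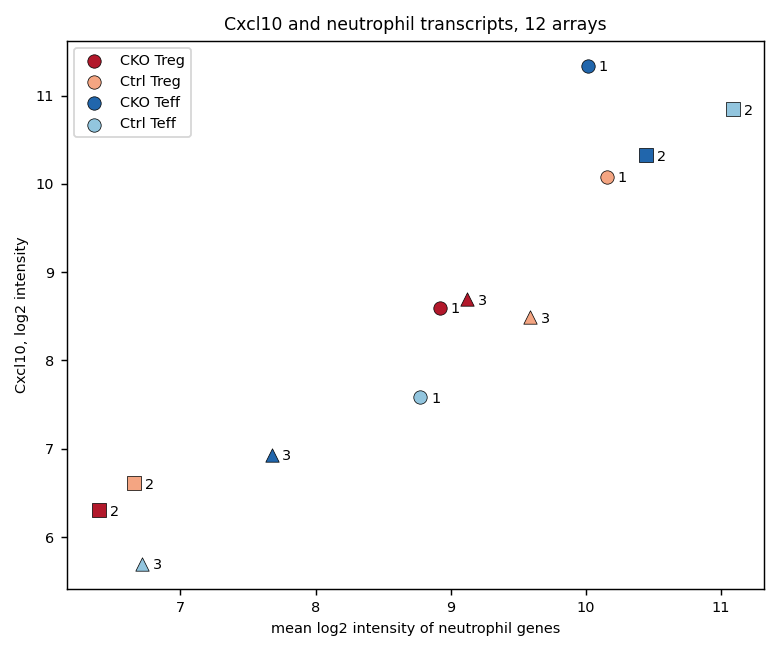
Cxcl10 log2 intensity (vertical axis) against the mean log2 intensity of 9 neutrophil genes (horizontal axis) on 12 arrays, coloured by group and numbered by replicate. The 4 arrays with the highest neutrophil mean, 10.01 to 11.09, are those with Cxcl10 of 10.08 to 11.34, and they belong to 3 groups.

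The first comparison asks whether Treg lacking Blimp1 transcribe these chemokines differently. In Treg the arrays labelled CKO had higher Xcl1 and lower Ccl4 and Ccl3 than Ctrl, each in 3 of 3 same-numbered pairs. None of the 7 genes had a Benjamini-Hochberg adjusted p under 0.05 over all genes in limma without pairs, where 12 of 12119 genes did (0.099%), and 3 had an unadjusted p under 0.05, as did 5.33% of genes. With same-numbered arrays as pairs, that is with the replicate number as a term in the fit, Xcl1 passed, as did 264 genes in all (2.18%).

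Xcl1 was 3.17-fold higher in CKO Treg (log2 difference 1.66 ± 0.43 SE, 95% interval 0.72 to 2.61), with pair differences of 2.22, 1.53 and 1.25, a direction shared by all 3 pairs in 17.5% of genes. Its adjusted p in limma was 0.329 without pairs and 0.0280 with them, and the pair fit lost the call without Treg pair 1, 2 or 3 (adjusted p 0.182, 0.118 and 0.102). The lowest CKO Treg array lay 0.56 above the highest Ctrl Treg array.

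Ccl4 was 1.83-fold lower in CKO Treg (−0.87 ± 0.21 SE, adjusted p 0.259, with pairs 0.0634), with pair differences of −1.37, −0.30 and −0.95 and no overlap between the groups. The second Ccl4 probe gave −1.66 ± 0.40 (adjusted p 0.299 over 17579 probes). Ccl3 gave −1.36 ± 0.56 (adjusted p 0.849, with pairs 0.0689), with pair differences of −1.64, −0.75 and −1.71. In the pair fit Ccl3 passed only when Teff pair 3 was left out (adjusted p 0.0139). All 3 Ccl3 pairs and all 3 Ccl4 pairs ran the same way, a pattern that 18.2% of all genes showed in the lower direction.

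The remaining genes in Treg showed no shared direction over the pairs. Ccl5 gave −0.66 ± 0.54, with pair differences of −0.89, 0.22 and −1.30. Ccl1 gave 0.08 ± 0.28 (95% interval −0.53 to 0.69), Cx3cl1 −0.09 ± 0.13 (−0.37 to 0.19) and Cxcl10 −0.53 ± 1.47 (−3.78 to 2.72). Groups did not overlap for 2 of the 7 genes, Xcl1 and Ccl4, against 12.3% of all genes. The median difference of the 7 was −0.53, against 0.00 over all genes.

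**Figure D4:**
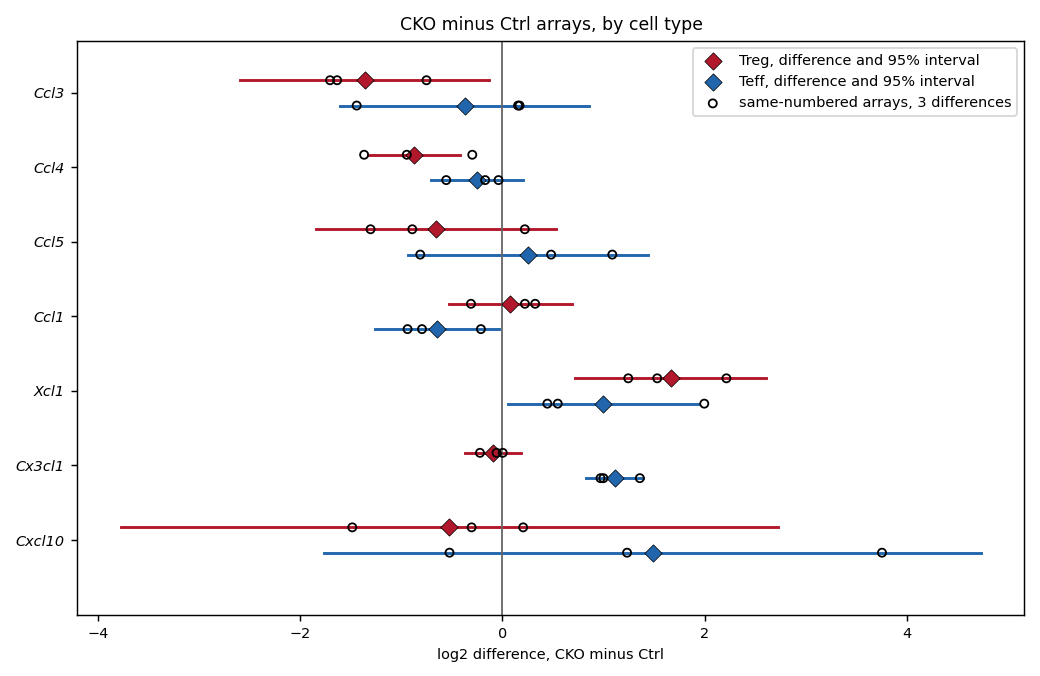
Log2 difference, CKO minus Ctrl (horizontal axis), for 7 chemokine genes in Treg (upper mark of each gene) and Teff (lower mark). Diamonds are differences of group means with 95% intervals from limma without pairs, and open circles are the 3 same-numbered differences. In Treg the intervals of Xcl1 (0.72 to 2.61), Ccl4 (−1.33 to −0.42) and Ccl3 (−2.60 to −0.13) do not reach 0, and in Teff those of Cx3cl1 (0.83 to 1.39), Xcl1 (0.05 to 1.94) and Ccl1 (−1.26 to −0.04) do not.

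The second comparison asks the same of effector cells. In Teff the arrays labelled CKO read higher than Ctrl for Xcl1 and Cx3cl1 and lower for Ccl1 and Ccl4, each in 3 of 3 pairs. One of the 7 genes, Cx3cl1, passed, against 2 of 12119 genes in all (0.0165%), and 3 had an unadjusted p under 0.05, against 4.17% of genes. Since Cx3cl1 was kept only through CKO Teff, the group in which it is high, it had to differ there, and its place in any count or median that involves CKO Teff, here and below, is no support for the group of genes. Its probe lay below the array median on all Ctrl Teff and CKO Treg arrays, so no linear fold is given for it.

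Cx3cl1 differed by 1.11 ± 0.13 (SE, 95% interval 0.83 to 1.39, adjusted p 0.0235 in limma, with pairs 0.0238, where 12 genes or 0.099% passed), with pair differences of 1.00, 1.36 and 0.97. The lowest CKO Teff array lay 0.94 above the highest Ctrl Teff array. Leaving out 1 array at a time kept the difference between 0.98 and 1.19, but the call held only without CKO Treg array 2 (adjusted p 0.0476) or CKO Teff array 3 (0.00573). It was lost without each of the other 10 arrays (adjusted p 0.0522 to 0.169), and in the fit of the 6 Teff arrays alone. On CKO Teff array 3 the basophil and mast cell mean was 5.52 and Cx3cl1 read 5.51. On the 9 arrays of the other groups Cx3cl1 read 4.43 to 4.71. The part of basophil or mast cell RNA in the Cx3cl1 values was not tested. Without CKO Teff arrays 1 and 2 the difference was 0.95 (adjusted p 0.284).

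Xcl1 was higher in CKO Teff by 1.00 ± 0.43 (SE, 95% interval 0.05 to 1.94), with pair differences of 0.55, 2.0 and 0.45 and adjusted p 1.00, or 0.259 with pairs. Apart from Cx3cl1, the groups did not overlap for Xcl1 alone, against 6.77% of all genes, and 12.8% of genes were higher in all 3 pairs. Ccl1 was lower in all 3 pairs, at −0.80, −0.94 and −0.21 (mean −0.65 ± 0.28, adjusted p with pairs 0.211), and Ccl4 was too, as 17.7% of genes were. The Ccl1 difference was −0.23 without CKO Teff arrays 1 and 2, and −0.86 to −0.37 over the 12 fits that left out 1 array.

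Ccl3 and Ccl5 had no common direction in Teff. Ccl3 gave −0.37 ± 0.56, with CKO array 3 alone below the Ctrl arrays. It gave 0.17 without that array and −1.46 without CKO Teff arrays 1 and 2. Ccl5 gave 0.25 ± 0.54, but −0.88 without CKO Teff arrays 1 and 2, and Cxcl10 gave 1.49 ± 1.47, but −1.11 without them. Ccl4 gave −0.26 ± 0.21 (95% interval −0.71 to 0.20), near the top of the scale. The median of the 7 was 0.25, against −0.02 over all genes.

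Whether the genotype difference itself differed between Treg and Teff was tested as an interaction, the difference in Treg minus that in Teff. None of the 7 genes passed, where 2 of 12119 genes did (0.0165%), and 1 had an unadjusted p under 0.05, against 3.48% of genes. That gene was Cx3cl1, at −1.20 ± 0.18 (adjusted p 0.150, with pairs 0.0638), and it passed without CKO Teff array 3 (0.0325), though not without CKO Teff arrays 1 and 2 (−1.04, adjusted p 0.912). Xcl1, higher in CKO in both cell types, gave 0.67 ± 0.60 (95% interval −0.67 to 2.0), so a larger difference in either cell type was not shown.

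Treg and Teff were then compared within each genotype. In CKO cells Ccl5 fell 11-fold in Treg relative to Teff, Cx3cl1 read below the array median in Treg and above it in Teff, and all 7 genes had a lower mean in Treg. In Ctrl cells Ccl5 was 5.83-fold lower in Treg without passing, and Ccl3, Ccl1 and Xcl1 had lower means too. In CKO Ccl5 passed in limma, as did Cx3cl1 with the limit given above, against 43 of 12119 in all (0.355%), 22 of them lower (0.182%). In Ctrl none of the 7 passed, against 123 genes in all (1.01%). In each genotype 4 of the 7 had an unadjusted p under 0.05, Cx3cl1 among them in CKO, against 10.8% of genes in CKO and 10.4% in Ctrl. The comparisons use different arrays, but each shares its arrays with the genotype comparisons above.

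Ccl5 in CKO Treg was lower than in CKO Teff, at −3.45 ± 0.54 (SE, log2, adjusted p 0.0272), with the highest Treg array 2.10 below the lowest Teff array. The call was lost without CKO Treg array 1, 2 or 3 (adjusted p 0.110, 0.118 and 0.0794), without CKO Teff array 1 or 2 (0.101 and 0.0712) and without Ctrl Teff array 1 (0.0572), with differences of −4.02 to −2.93 over the 12 fits. Without CKO Teff arrays 1 and 2 it was −2.32 (adjusted p 0.374). The mean of the 9 listed CD8 and NK cell genes was 7.78, 8.45 and 6.89 on CKO Teff arrays 1, 2 and 3. On CKO Treg arrays 1, 2 and 3 it was 6.30, 6.19 and 6.70. In Ctrl the ranges of this mean overlapped, at 6.42 to 6.91 in Teff and 6.24 to 6.95 in Treg. Its part in the Ccl5 differences was not tested. In Ctrl cells Ccl5 gave −2.54 ± 0.54 (adjusted p 0.0600) with a gap of 1.55 between the groups, and it passed without CKO Teff array 2 (0.0303), CKO Teff array 3 (0.0215) or Ctrl Treg array 3 (0.0438).

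Cx3cl1 in CKO differed by −1.16 ± 0.13 (adjusted p 0.00799 in limma). It kept its call in all 12 fits that left out 1 array (adjusted p 0.00296 to 0.0434). These fits used the probes kept in the main fit, and Cx3cl1 was kept only through CKO Teff. Neither its p-value nor its stability is therefore support. The call was lost when only the groups compared were fitted. Cx3cl1 gave −1.0 without CKO Teff arrays 1 and 2. In Ctrl it gave 0.04 ± 0.13 (95% interval −0.24 to 0.32).

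Ccl3 was lower in CKO Treg than in CKO Teff, at −2.31 ± 0.56 (adjusted p 0.120) and in Ctrl Treg than in Ctrl Teff, at −1.32 ± 0.56 (0.425), without overlap in either genotype. In CKO it passed without CKO Teff array 3 (−2.86, adjusted p 0.0236), and without CKO Teff arrays 1 and 2 it was −1.22. Ccl4 gave −0.72 ± 0.21 in CKO (adjusted p 0.192), where its second probe gave −2.34 ± 0.40 (0.0417 over 17579 probes), and −0.10 ± 0.21 in Ctrl.

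Ccl1 gave −0.29 ± 0.28 in CKO, where the groups overlapped, or −0.70 without CKO Teff arrays 1 and 2, and −1.01 ± 0.28 in Ctrl (adjusted p 0.154), where they did not. Xcl1 gave −0.50 ± 0.43 in CKO, with a gap of 0.06 between the groups, and −1.17 ± 0.43 in Ctrl (adjusted p 0.335), where it passed without Ctrl Teff array 2 (−1.71, adjusted p 0.0473). Cxcl10 gave −1.67 ± 1.47 in CKO, but 0.93 without CKO Teff arrays 1 and 2, and 0.35 ± 1.47 in Ctrl.

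Groups did not overlap, with Treg lower, for Ccl3, Ccl4, Ccl5 and Xcl1 in CKO, apart from Cx3cl1, against 5.58% of all genes, and for 3 in Ctrl (Ccl3, Ccl5 and Ccl1), against 6.47%. The median difference of the 7 was −1.16 in CKO, which is the value of Cx3cl1 itself, against 0.03 over all genes, and −1.01 in Ctrl, against 0.01.

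**Figure D5:**
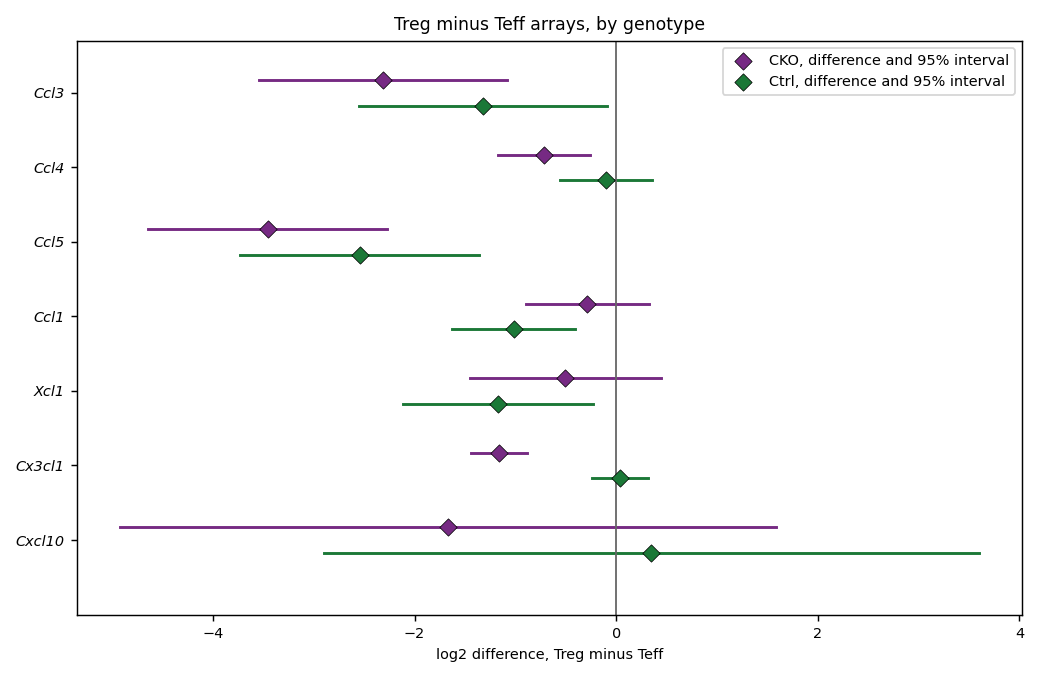
Log2 difference, Treg minus Teff (horizontal axis), for 7 chemokine genes in CKO (upper mark of each gene) and Ctrl cells (lower mark), with 95% intervals from limma. Ccl5 lies below 0 in CKO (−4.64 to −2.27) and in Ctrl (−3.73 to −1.36), and Cx3cl1 lies below 0 in CKO (−1.44 to −0.88) and near 0 in Ctrl.

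Among receptors of these ligands 7 had a probe, and 4 passed the filter on dim probes: Ccr4, Ccr8, Cx3cr1 and Cxcr3. Ccr1, Ccr3 and Xcr1 had a dim probe. None of the 4 passed in limma without pairs in any comparison, with 0 at an unadjusted p under 0.05 in either genotype comparison and 2 in each comparison of Treg with Teff. Cxcr3, the Cxcl10 receptor of type 1 T cells, ranged over 10.21 to 11.14 in CKO Treg against 9.33 to 10.25 in Ctrl Treg, a difference of 0.90 ± 0.43 (adjusted p 0.972). Its pair differences were nearly equal, 0.88, 0.95 and 0.88, and it passed with pairs (adjusted p 0.0097), though not without Treg pair 1, 2 or 3 (0.0744, 0.0682 and 0.0733).

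Ccr8, the Ccl1 receptor, had higher means in Treg than in Teff in both genotypes, without passing. It was 9.48, 9.95 and 9.62 in CKO Treg against 5.71, 8.26 and 6.27 in CKO Teff (2.93 ± 0.71, adjusted p 0.124), and 10.52, 10.25 and 10.10 in Ctrl Treg against 5.92, 8.59 and 6.32 in Ctrl Teff (3.34 ± 0.71, adjusted p 0.0653), without overlap in either genotype. Ccr4, the receptor of Ccl22, averaged 5.82 ± 0.20 in CKO Treg against 4.81 ± 0.12 in CKO Teff (1.01 ± 0.19, adjusted p 0.0595). Cx3cr1 stayed between 4.47 and 5.11 on all arrays, close to the array median.

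Among 30 other chemokine ligands 26 had a probe and 20 were tested. None passed in any of the 5 comparisons in limma, with or without pairs, and 0 in Treg and 2 in Teff had an unadjusted p under 0.05 in the genotype comparisons. Ccl9, which lies between Ccl5 and Ccl3, was 11.95, 11.42 and 7.49 in CKO Teff against 6.72, 7.34 and 6.46 in Ctrl Teff (3.44 ± 1.04, adjusted p 0.983), and its 2 high arrays were the 2 with high basophil and mast cell genes. Without them the difference was 0.65 (adjusted p 0.906). Cxcl9 read 12.21, 7.40 and 7.22 in CKO Teff against 7.51, 8.08 and 5.91 in Ctrl Teff, high on array 1 alone, with a difference of 0.05 without CKO Teff arrays 1 and 2. Cxcl2, a neutrophil attractant, was lower in CKO Treg than in Ctrl Treg, at −0.88 ± 0.91 (adjusted p with pairs 0.126), with pair differences of −0.80, −1.02 and −0.83.

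Of 15 transcription factors of T cell activation, among them the NFAT, NF-kB, AP-1 and T-box genes, 12 were tested and none passed in any of the 5 comparisons, with or without pairs. At an unadjusted p under 0.05 there was 1 in each genotype comparison, 4 in each comparison of Treg with Teff and 0 in the interaction. Median differences of the 12 between CKO and Ctrl were −0.24 in Treg and −0.12 in Teff, against 0.00 and −0.02 over all genes.

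Genes whose pattern was most like a chemokine's were found by the RMS difference of centred log2 values over the 12 arrays, for the 4 genes that spanned at least 2 log2 units. Ccl3, with an RMS of its own of 1.21, was nearest to Nkg7 (0.54), a cytotoxic granule gene, Ckb (0.62), a creatine kinase, and Gzmk (0.62), a granzyme. Ccl5, with 1.64, was nearest to Klrd1 (0.43), the CD94 receptor chain, Jaml (0.45), an adhesion molecule, and Hs3st3b1 (0.65), a heparan sulfate sulfotransferase. Xcl1, with 0.94, was nearest to Pax1 (0.43), Gstt1 (0.47) and Hspa2 (0.55). Cxcl10, with 1.80, was nearest to Alox5ap (0.35), Mpo (0.38) and Prtn3 (0.46), of which Mpo and Prtn3 encode neutrophil granule proteins. These are descriptions over arrays that share groups and sorts, and they carry no test.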

How the data were processed

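Total RNA of 12 sorted T cell samples (Qiagen RNeasy) was amplified with the Ambion MessageAmp kit to biotinylated cRNA and read on Illumina mouse arrays, per the labels' protocols. Each probe's deposited value is a log2 intensity made by the authors with GenomeStudio and limma 3.30.11, per the submitters' processing notes. How they corrected background, normalized and filtered probes was not stated. The log2 scale was read from the values' range, and the arrays have nearly equal distributions. Raw intensities were not analysed here, and the number of arrays limits the precision.

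Of 31641 probes, 28197 carried a single gene symbol in the platform annotation, 5 had several and 3439 had none. A probe was kept when it exceeded its array's median on at least 3 of 12 arrays (19396 probes, 17579 of them with a single symbol), and each of 12119 genes was represented by its kept probe with the highest mean. Differences were tested two-sided with limma 3.58.1 in R 4.3.3 (data.table package, version 1.17.8), with 1 mean per group and all 12 arrays, and adjusted by Benjamini-Hochberg over all genes. A gene passed at an adjusted p under 0.05. The 5 comparisons set CKO against Ctrl within Treg and within Teff, set Treg against Teff within each genotype, and tested the interaction. The steps were tested on simulated data. A list's count and median stand beside those of all genes, with no test of the list.

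Whether a shared number pairs CKO and Ctrl arrays was checked on their deviations from the group means, correlated over genes. Same-numbered arrays gave 0.519 to 0.589 within Treg and 0.348 to 0.737 within Teff, each closest to its own number in 3 of 3 pairs, so values with pairs are given beside genotype results. No label says what a number marks.

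The chemokines, gene lists, marker lists and alternatives were chosen with earlier results of these data known. By rule, all 8 chemokines and their receptors with a probe were named, the 2 other ligands with the largest difference in each genotype comparison, any list member past the threshold, and the 3 genes nearest in pattern to each chemokine that spanned at least 2 log2 units. Promoter bases and gene order come from RefSeq tables of GRCm38.p6. Ccl4 and Ccl5 had no entry among the promoters.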

Additional observations from a re-analysis of the deposited data

How the results depend on the processing

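Leaving out any 1 array, or 1 same-numbered pair in the fit with pairs, gave 0 to 2 chemokines past the threshold for CKO against Ctrl in Treg (5 to 318 genes in all), 0 to 1 in Teff (0 to 123), 1 to 3 for Treg against Teff in CKO (16 to 259), 0 to 1 in Ctrl (44 to 163) and 0 to 1 in the interaction (0 to 119). With the replicate number as a block, 1 chemokine and 264 genes passed in Treg, 12 genes in Teff, and 5 in the interaction. For Treg against Teff, same-numbered deviations correlated by 0.0413 to 0.325 in CKO, closest to their own number in 2 of 3 pairs. In Ctrl they correlated by −0.266 to 0.265, closest in 1 of 3, so pairing was not clear in either. The block by number left 1 chemokine and 20 genes in CKO, where Ccl5 no longer passed (adjusted p 0.0716 in limma). The replicate block changed no other call of a chemokine.

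A filter at the 75th percentile, which removed Cx3cl1, gave 0 chemokines and 1 gene in Teff, 1 chemokine for Treg against Teff in Ctrl, 1 chemokine and 82 genes in CKO, and 0 genes in the interaction. A variance trend with robust settings gave 1 chemokine for Treg against Teff in Ctrl, 86 genes in CKO, and 1 chemokine and 4 genes in the interaction. Fitting only the groups compared gave 25 genes in Treg, 0 chemokines and 0 genes in Teff, 29 genes for Treg against Teff in Ctrl, and 0 chemokines and 4 genes in CKO. Without CKO Teff arrays 1 and 2, which was chosen after seeing the data and assumes that the lone CKO Teff array varies like the other groups, 19 genes passed in Treg, 0 chemokines and 0 genes in Teff, 1 chemokine for Treg against Teff in Ctrl, 0 chemokines and 0 genes in CKO, and 0 genes in the interaction. Why the counts moved was not tested. The stricter filter used fewer genes, and the fits of only the groups compared or without CKO Teff arrays 1 and 2 used fewer arrays. The fit with a variance trend used the same genes and arrays as the main fit.

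Signs turned without those 2 arrays for CKO against Ctrl in Teff in Ccl5 (−0.88), Cxcl10 (−1.11), Cxcl2 (−0.38) and Cxcr3 (−0.45), for Treg against Teff in CKO in Cxcl10 (0.93), and in the interaction in Ccl3 (0.10), Ccl5 (0.23) and Cxcl10 (0.58). Leaving out 1 array or pair turned signs in Treg for Ccl1 (−0.0660 to 0.27), Cxcl10 (−1.42 to 0.32) and Ccl9 (−1.21 to 0.145), in Teff for Ccl3 (−0.65 to 0.17), Ccl5 (−0.27 to 0.82), Ccr4 (−0.33 to 0.0268), Ccr8 (−0.95 to 0.63) and Cxcr3 (−0.32 to 0.45), and for Treg against Teff in Ctrl for Ccl4 (−0.21 to 0.0619), Cx3cl1 (−0.0147 to 0.0936) and Cxcl10 (−0.82 to 1.75), none of which had passed. Over all results and alternatives 1139 kept direction and side of the threshold, 26 passed newly, 25 no longer passed and 29 turned sign. Quantile normalization, no filter on dim probes and the mean of a gene's probes moved no count of calls by over 1.5 times, though with the mean of probes Ccl4 passed for Treg against Teff in CKO (−1.53, adjusted p 0.0214).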

Other observations

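Klra7 and Klre1, killer cell lectin-like receptor genes picked here after their values were seen, differed between the CKO Teff arrays as Ccl5 did. Of the other listed genes of this family, Klrb1c stayed at 4.17 to 4.80 on all 12 arrays, and Klrk1 ranged over 4.45 to 6.99. Klra7 read 8.21, 10.84 and 5.78 on CKO Teff arrays 1, 2 and 3, against 4.90, 5.52 and 4.51 in Ctrl Teff. Klre1 read 8.31, 10.33 and 6.21 in CKO Teff, against 6.01, 6.17 and 5.07 in Ctrl Teff. On both probes array 2 was highest and array 3 lowest, the order in which Ccl5 read 13.54, 12.59 and 11.36, and in both genes all 3 CKO Teff arrays lay above the same-numbered Ctrl array. Nkg7, the gene nearest to Ccl3 in pattern, had the same order over a narrower range, with 13.40, 13.55 and 12.98 in CKO Teff, against 13.30, 12.80 and 13.53 in Ctrl Teff. Cx3cl1 had this order as well, with 5.56, 5.93 and 5.51 on CKO Teff arrays 1, 2 and 3. How many of all genes share the order was not counted.

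Basophil and mast cell genes also split the CKO Teff arrays, but with array 1 highest. Prss34, a basophil protease gene, read 13.96, 12.85 and 6.60 in CKO Teff, against 7.34, 8.35 and 4.79 in Ctrl Teff, and Hdc, which makes histamine, read 14.19, 12.94 and 8.57 in CKO Teff, against 9.55, 10.82 and 7.37 in Ctrl Teff. Ms4a2, the beta chain of the IgE receptor, stayed between 4.21 and 4.64 on all 12 arrays.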
